A study of Arabidopsis thaliana with 7 samples.

Results

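THI2.1 (AT1G72260) and THI2.2 (AT5G36910) are paralogous Arabidopsis thionin genes, on 2 of the 13513 probe sets that carry a single gene name. They were chosen by their intensity in wild-type flowers, high for THI2.1 and near the bottom of the scale for THI2.2, so those levels and any difference measured against wild type are given as a description without a test. Each gene had 1 probe set, and both passed the filter on dim probe sets described below. THI2.2 passed it only through mutant arrays, so among tested genes it had to differ between genotypes.

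Flowers of stages 1 to 14 from plants grown for 6 weeks in long days were profiled on 7 single-colour arrays, 1 array for each of 7 groups. Wild-type Columbia flowers were untreated, mock-sprayed with 1% methanol and 0.05% Tween-20, or given the auxin indole-3-acetic acid (IAA) in that same solution. Flowers of arf6 arf8 plants, called here the double mutant, and of a genotype called here the single-copy mutant were either untreated or given IAA, with no mock array for either mutant. The labels give the single-copy mutant as arf6/arf6 ARF8/arf8, whereas the series text makes ARF6 the heterozygous gene. In both readings 1 copy of 1 of these genes is left, and which gene that is is not settled. The IAA dose is 10 µM in the labels and 10 mM in the series text, and collection came 30 minutes after the spray. The study asked how auxin alters flower transcripts and how far ARF6 and ARF8 are needed for it.

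Thionins are small, cysteine-rich, basic peptides that are made with a signal peptide and an acidic tail and are toxic to many fungi and bacteria. In Arabidopsis THI2.1 is known from flowers and siliques and as a gene induced by methyl jasmonate and by fungal attack, and THI2.2 is known from seedlings. ARF6 and ARF8 encode auxin response factors that act together in the maturation of stamens, petals and gynoecium and are known to promote jasmonate production in flowers.

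The values are linear intensities in the units of the deposited table, and no group has a repeat array, so a value per array carries no error. Array medians ran from 240.95 to 261.5. The floor used for fold values was 64.9, the 25th percentile of all values, and a value below it is treated as too low to be ordered. The 10th percentile was 26.9 on the wild-type mock array and ran from 9.4 to 17.89 on the others. Because levels on different probe sets are not on a common scale, the intensities of THI2.1 and THI2.2 were not set against each other.

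THI2.1 was bright on every array and varied little. In wild type it read 8514.8 untreated, 9199.6 with mock and 9473.5 with IAA. In the single-copy mutant it read 8506.8 untreated and 9999.9 with IAA, and in the double mutant 9972.8 untreated and 10233.1 with IAA. The single-copy mutant untreated and wild type untreated were the lowest arrays and nearly equal, and the double mutant with IAA was the highest. The highest array exceeded the lowest 1.2-fold, and the coefficient of variation over the 7 arrays was 7.52% (n = 7). The log2 range was 0.27, against a median of 0.64 over the 13021 probe sets tested, 5.46% of which had a smaller range. This rank is only a description, since the gene was chosen for its high level in wild type. It was not set against probe sets of like brightness. The brightest probe set of an array read between 16584 and 21821.4, above THI2.1 on every array. Whether the probes of THI2.1 were near saturation was not tested.

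In wild type THI2.2 stayed below the floor, at 23.5 untreated, 50.8 with mock and 20.9 with IAA. The highest of these was on the mock array, the one with the raised low end, and no order was read among them. In the double mutant THI2.2 read 443.7 untreated and 395.5 with IAA. Both arrays were well above the floor and above every array of the other genotypes. In the single-copy mutant the untreated array read 260.4 and the IAA array 14.8. These arrays thus lay on opposite sides of the floor, the untreated one on the side of the double mutant and the IAA one on the side of wild type. Over the 7 arrays THI2.2 was above the floor on 3, all of them mutant, and its log2 range on the floored scale was 2.77. Of the probe sets tested, 99.3% had a smaller range, which is no finding, since the gene was chosen with its level in wild type known.

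**Figure D1:**
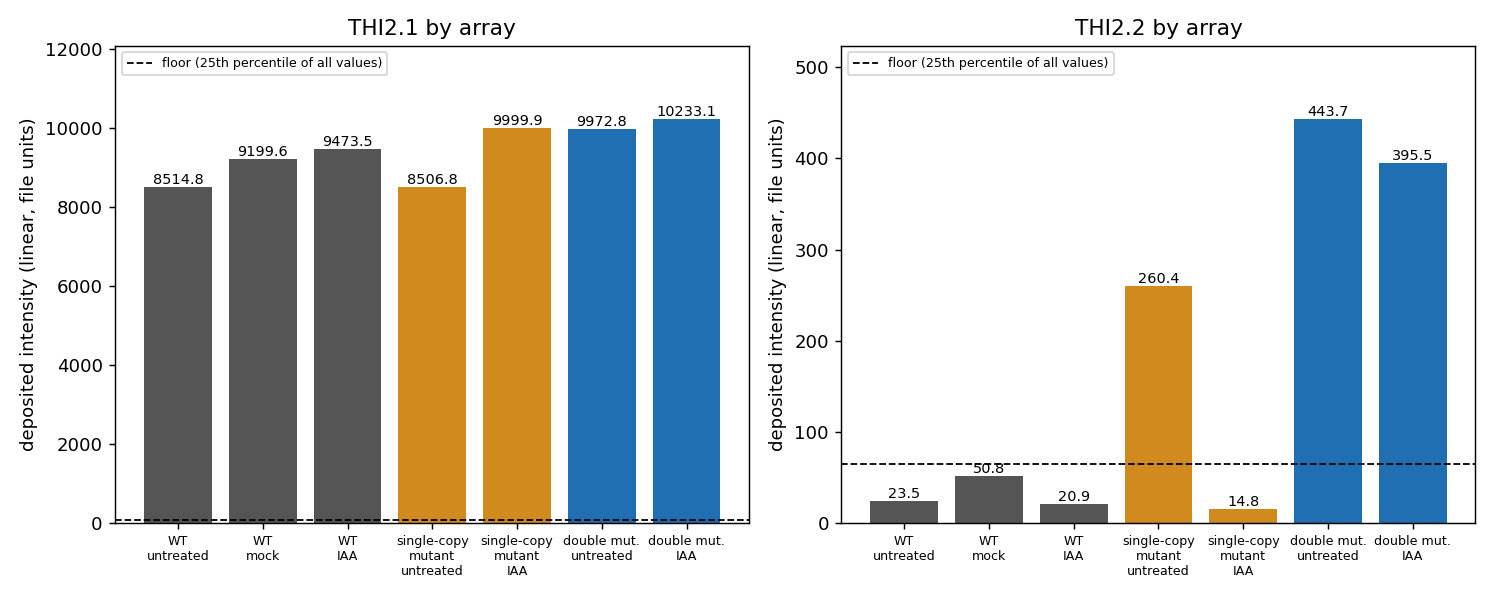
Deposited intensity (linear, file units, vertical axes from 0) of THI2.1 and THI2.2 on each of the 7 arrays, with 1 bar for each array, no error bars because no group has a repeat, and a dashed line at the floor of 64.9. THI2.1 stays between 8506.8 and 10233.1, whereas THI2.2 is above the floor only on both double-mutant arrays and on the untreated array of the single-copy mutant.

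The levels of THI2.1 relative to wild type were close to 1 in both mutants. The double mutant's 2 arrays read 9972.8 and 10233.1, and the 3 wild-type arrays 8514.8 to 9473.5. The fitted difference was 0.17 ± 0.13 (SE) on the log2 scale, or 1.12-fold. For the single-copy mutant, whose arrays overlapped those of wild type, it was 0.04 ± 0.13. In the same fit 17.1% of all probe sets differed between the double mutant and wild type and 2.76% between the single-copy mutant and wild type. Nothing is read from these shares for the thionins, because wild-type levels chose them.

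THI2.2 was at least 6.45-fold higher in the double mutant than in wild type. The ratio was computed against the floor, since every wild-type array was below it, and for single pairs it was at least 6.84-fold in untreated and at least 6.09-fold in IAA-treated flowers. In untreated flowers of the single-copy mutant THI2.2 was at least 4.01-fold above wild type, and with IAA both genotypes were below the floor. The fitted difference was 2.69 ± 0.44 (SE) for the double mutant and 1.00 ± 0.44 for the single-copy mutant. The second of these averages the untreated pair, in which wild type was set to the floor, and a pair in which neither array was above the floor. It was 0.04 when the untreated array of the single-copy mutant was left out and 1.96 when its IAA array was. With the floor at the 10th percentile the values were 4.24 and 1.49, and with the floor at the 40th 1.41 and 0.36, so their size depends on the floor. The fitted value for the double mutant was 2.15 without the wild-type untreated array and 3.23 without the wild-type IAA array.

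The double mutant was compared with the single-copy mutant, a comparison that does not use the wild-type level directly. THI2.2 was higher in the double mutant in both pairs, 443.7 against 260.4 untreated (1.70-fold) and 395.5 against 14.8 with IAA (at least 6.09-fold, computed against the floor). The fitted difference was 1.69 ± 0.44 (SE) and did not pass the threshold over all probe sets (limma, adjusted p = 0.155), where 1.25% did. Nothing is read from this fitted value or its p, because THI2.2 was tested only through arrays on which it is high and 1 of the arrays compared was below the floor. The call also turned with the arrays that entered: it was made without the untreated array of the single-copy mutant, where the difference was 2.65, and without the wild-type untreated or wild-type IAA array, and was not made without the IAA array of the single-copy mutant, where the difference was 0.73. THI2.1 differed by 0.13 ± 0.13 (95% interval -0.19 to 0.45; limma, adjusted p = 0.707), with log2 ratios of 0.23 untreated and 0.03 with IAA.

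Several marker genes of flower cell types differed between genotypes as well. The pollen list had 5 named genes, whose summed intensity was between 2861.4 and 3593.7 in wild type, between 2135.6 and 2324.0 in the single-copy mutant and between 1770.0 and 1844.9 in the double mutant. All 3 of its tested genes, AT59, ANX2 and TUA1, were lower in the double mutant than in wild type, with fitted values of -1.09, -1.48 and -0.62 (limma, adjusted p = 0.00815, 0.0107 and 0.0326), a direction in which 7.96% of all probe sets were called. Without the double-mutant IAA array the adjusted p was 0.0633, 0.0912 and 0.108 (limma), and TUA1 also missed the threshold without the untreated double-mutant array or either of wild-type untreated and IAA (limma, 0.0552 to 0.202). The untested pollen genes ANX1 (97.6 and 84.1) and MGH3 (141.1 and 128.2) lay within their wild-type ranges in the double mutant. The tapetum regulator gene AMS, the only named gene of its list, read between 123.9 and 217.1 in wild type, 292.2 and 374.6 in the single-copy mutant, and 321.1 and 387.8 in the double mutant. Its difference between double mutant and wild type was 0.85 (limma, adjusted p = 0.0275), with adjusted p = 0.102, 0.0668 and 0.172 without wild-type untreated, double-mutant untreated and double-mutant IAA. SWEET9, the nectary sucrose transporter gene, read between 1460.6 and 1781.9 in wild type and 82.6 and 83.5 in the double mutant, a difference of -4.28 (limma, adjusted p = 3.28e-05). SPT, a carpel gene and the only named gene of the floral organ list, read between 395.1 and 486.4 in wild type, 569.7 and 600.2 in the single-copy mutant, and 622.9 and 801.3 in the double mutant. It was higher in the double mutant than in wild type by 0.73 (limma, adjusted p = 0.016), with adjusted p = 0.0521, 0.0667 and 0.0911 (limma) without wild-type untreated, wild-type IAA and double-mutant IAA. SAG29, a senescence marker, read between 152.7 and 315.0 in wild type and 239.7 and 248.3 in the double mutant. Its fitted difference was 0.15 and did not pass the threshold (limma, adjusted p = 0.705). No gene of these lists was at 0 on any array. In whole flowers, fewer cells of a type and less RNA per cell cannot be told apart. The part of these changes in the THI2.2 difference was not tested.

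The response to IAA was measured in 3 genotypes. THI2.1 was higher with IAA in 3 of 3 pairs, by 11.3% in wild type, 17.6% in the single-copy mutant and 2.61% in the double mutant. After quantile normalization the double-mutant pair turned, with 10519.6 untreated and 9612.6 with IAA. The IAA arrays (9473.5 to 10233.1) and the untreated arrays (8506.8 to 9972.8) overlapped, because the untreated double mutant lay above wild type with IAA. The fitted difference of THI2.1 was 0.14 ± 0.11 (SE; 95% interval -0.12 to 0.40; limma, adjusted p = 0.568), and 1.08% of all probe sets passed the threshold. In wild type the mock array was 8.04% above the untreated one, and IAA was 2.98% above mock. The fitted differences were 0.11 ± 0.17 for mock against untreated (95% interval -0.30 to 0.51; limma, adjusted p = 0.819) and 0.04 ± 0.17 for IAA against mock (95% interval -0.37 to 0.45; limma, adjusted p = 0.986). The shares called over all probe sets were 0.753% for mock against untreated and 0.177% for IAA against mock. After quantile normalization the value for IAA against mock was -0.07. The intervals for THI2.1 leave out a change of 2-fold in either direction in each of these comparisons, but not a smaller change. With 1 array a group they may miss the spread between plants, and saturation of the probes was not tested.

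For THI2.2 the response to IAA differed between pairs. In the single-copy mutant it was at least 4.01-fold lower with IAA, computed against the floor because the IAA array was below it. In the double mutant it was 10.9% lower with IAA. In wild type both arrays were below the floor and no ratio can be given. In the single-copy mutant pair the median absolute log2 ratio over all probe sets was 0.17, against 0.15 in the wild-type and 0.24 in the double-mutant pair. The correlation of its 2 arrays across probe sets, which are not independent replicates, was 0.971, against 0.977 and 0.952. These values over all probe sets do not tell whether the THI2.2 difference of this pair would recur, since no array was repeated. The single-copy mutant has no mock array, so the spray and IAA cannot be told apart there.

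The fitted IAA difference of THI2.2 over the genotypes was -0.72 ± 0.36 (SE; 95% interval -1.58 to 0.13) and did not pass the threshold (limma, adjusted p = 0.385). It rests on the single-copy mutant pair, and over the arrays left out in turn it ranged from -1.09 to -0.08. Nothing is read from this fitted value or its p. The floor fixed the wild-type pair and bounded the single-copy mutant pair, and THI2.2 was tested only through arrays on which it is high. For mock against untreated and for IAA against mock the fit gave -0.36 ± 0.57 in each case (limma, adjusted p = 0.811 and 0.922), although all of the wild-type arrays concerned were below the floor. These values come from the additive terms and not from a measured difference in wild type. With the floor at the 10th percentile the mock value was 0.45, and with no floor 0.43.

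**Figure D2:**
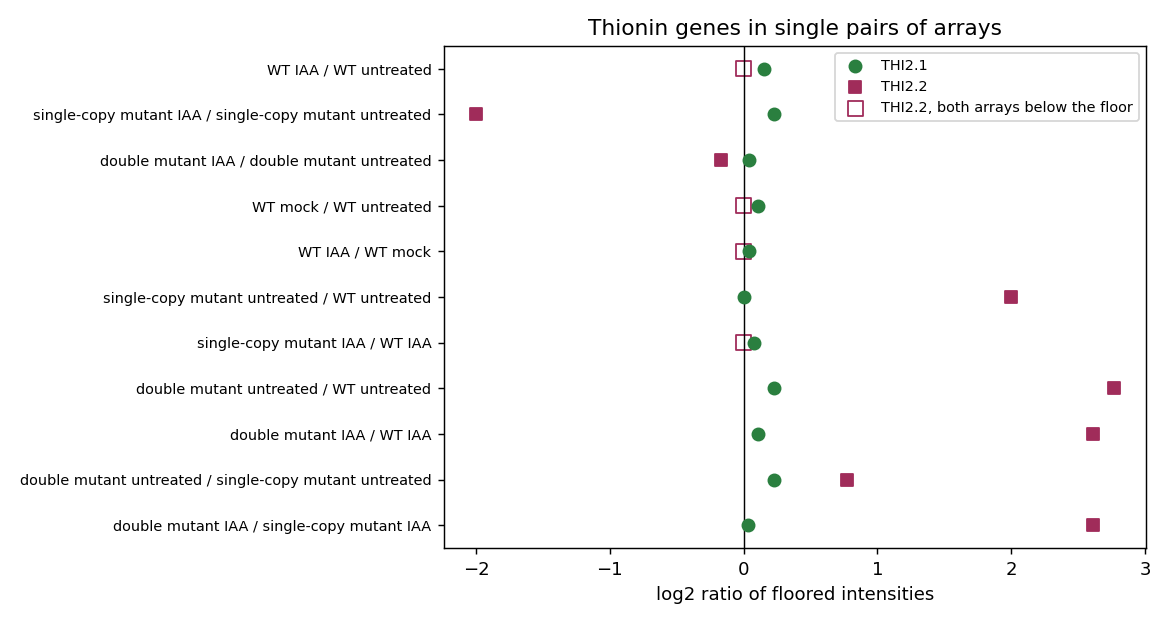
Log2 ratio of floored intensities (horizontal axis) for THI2.1 (circles) and THI2.2 (squares) in 11 pairs of arrays, each row naming numerator and denominator, with open squares where both arrays were below the floor. THI2.1 stays between 0 and 0.23, whereas THI2.2 lies far from 0 where 1 array was below the floor, and its ratio there is a bound set by the floor (at least 6.84-fold in untreated double mutant over wild type).

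Whether the IAA response of the double mutant differed from that of the other genotypes was asked with an interaction term. It was -0.16 ± 0.19 (SE; 95% interval -0.65 to 0.34) for THI2.1 and 0.84 ± 0.84 (95% interval -1.39 to 3.06) for THI2.2 (limma, adjusted p = 0.756 and 0.708). In this model 0% of all probe sets passed, and it had 1 residual degree of freedom, so the wide interval of THI2.2 covers differences of over 2-fold in both directions. Nothing is read from the THI2.2 term, because wild-type untreated, wild-type IAA and the IAA array of the single-copy mutant were below the floor. The responses it is set against were thus fixed or bounded by the floor, and THI2.2 was tested only through arrays on which it is high.

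**Figure D3:**
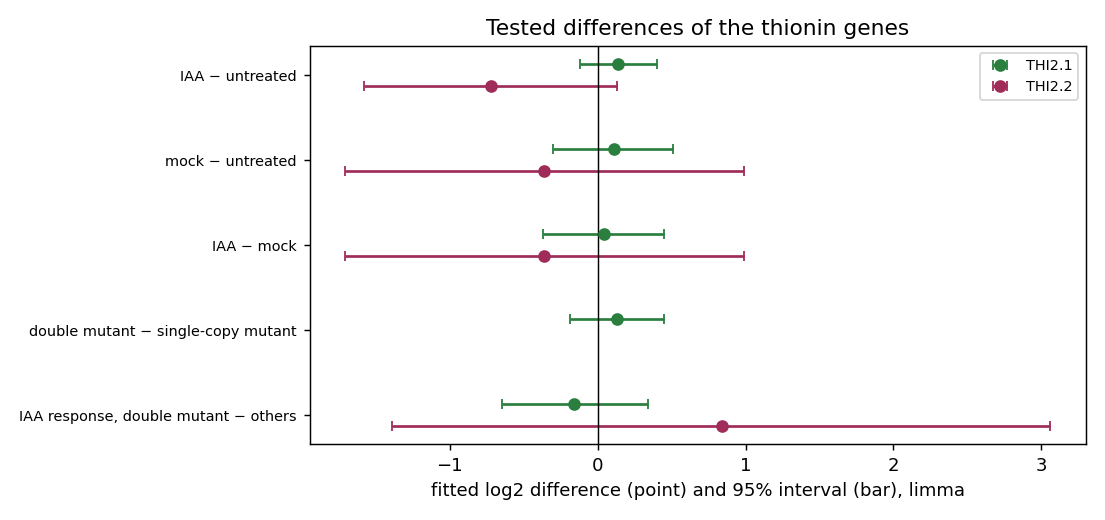
Fitted log2 differences (points) with 95% intervals (bars) from limma for THI2.1 in the 5 comparisons that were tested and for THI2.2 in 4 of them, without the double mutant against the single-copy mutant, from which nothing is read for THI2.2. Every THI2.1 bar crosses 0. The THI2.2 interval left out ran from 0.64 to 2.73. Nothing is read from it, nor from the 4 THI2.2 bars drawn. The floor set the THI2.2 values in wild type and in the single-copy mutant with IAA.

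The thionins had no common pattern over the arrays. Pearson's r between their floored log2 values was 0.31 and Spearman's rho between their intensities 0.07, over 7 arrays that include several levels of THI2.2 below the floor. By the reference order of genes they lie on different chromosomes, and the 3 nearest genes with a named probe set on each side were examined. Around THI2.1, 4 of these 6 were tested and 2 passed the threshold in a comparison, where 1.25% of all probe sets passed between the mutants, 17.1% between the double mutant and wild type and 2.76% between the single-copy mutant and wild type. AT1G72290, 4 genes from THI2.1, read 690.1, 977.5 and 984.0 on the untreated, mock and IAA arrays of wild type. It read 3148.3 and 2990.3 in the single-copy mutant and 15.5 and 56.6 in the double mutant. Its difference between the double mutant and the single-copy mutant was -5.56 (limma, adjusted p = 6.14e-05). In that fit the readings of 15.5 and 56.6 were replaced by 64.9, so the size is a bound. The spread between these readings did not enter the p-value. With the floor at the 10th percentile the difference was -6.69, and with the floor at the 40th -4.29 (limma, adjusted p = 0.00097 and 0.00266). AT1G72240, 2 genes away, was lower in both mutants than in wild type, by fitted log2 values of -1.20 and -0.94 in the double mutant and the single-copy mutant (limma, adjusted p = 0.00345 and 0.0244). The second of these calls was lost when any of the arrays but wild-type IAA and mock was left out (limma, adjusted p from 0.0583 to 0.154). The genes next to THI2.1 on either side were AT1G72250, with fitted values between 0.06 and 0.31 in the 7 comparisons, and AT1G72270, which did not pass the filter. Around THI2.2, 2 of 6 were tested, BGLU42 and ACS, and 0 passed in a comparison. BGLU42 had a value of -0.24 and ACS of -0.11 in the double mutant against wild type. Both lie on the same side of THI2.2, 6 and 7 genes away. No nearer gene was tested, nor any of the 3 on the other side, which reach 12 genes away.

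The genes whose pattern over the 7 arrays was most like that of THI2.2 were sought among 171 single-gene probe sets with at least 0.75 of its log2 range. The closest was COR15A, which encodes a cold-regulated chloroplast protein known to respond to cold and abscisic acid, with r = 0.975. In wild type COR15A read 1577.7 untreated, 1538.0 with mock and 1227.9 after IAA. It read 3614.1 untreated and 1856.7 with IAA in the single-copy mutant, and 6074.8 and 4482.1 in the double mutant. Like THI2.2 it was lower with IAA than untreated in the single-copy mutant and highest in the double mutant, but it was well above the floor on every array. AT2G03310 (r = 0.908) read 288.1 untreated and 162.3 with IAA in the single-copy mutant, against 372.4 and 287.8 in the double mutant and 76.2 to 137.4 in wild type. The others were AT3G55920, AT1G62510 and AT1G16950 (r = 0.897, 0.882 and 0.875), and in these the 2 arrays of the single-copy mutant lay close together. AT3G55920, for example, read 149.2 and 140.3 there, against 1.0 to 16.8 in wild type and 317.3 and 260.9 in the double mutant. Its wild-type values, like those of THI2.2, were all below the floor and set to it for r. Such likeness over 7 arrays is a description, since the genes were read on the same arrays and each was chosen for its likeness.

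**Figure D4:**
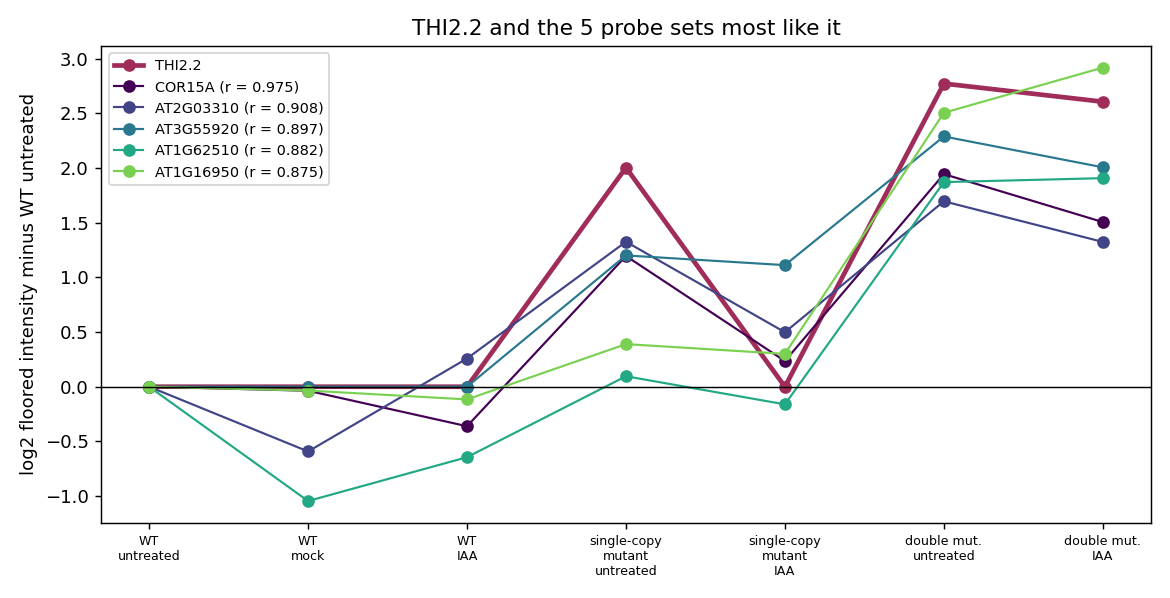
Log2 floored intensity minus that of untreated wild type (vertical axis) on the 7 arrays for THI2.2 (thick line) and the 5 probe sets with the highest Pearson r to it, with lines joining arrays only to guide the eye. THI2.2, COR15A and AT2G03310 drop between the untreated and the IAA array of the single-copy mutant, while AT3G55920 reads 149.2 and 140.3 there.

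For THI2.1 the search covered 6830 probe sets, of which 45 had r above 0.9. The first 5 were AT1G75140, MYBC1, AT2G03240, AT2G07180 and AT3G28940, with r between 0.949 and 0.962. MYBC1, which encodes a MYB-related transcription factor, read 28.5 in untreated wild type and 48.5 in the untreated single-copy mutant, both set to the floor for r. It read 338.6 in the double mutant with IAA. AT2G03240 read 1237.5 in untreated wild type and 1658.0 in the double mutant with IAA. Because THI2.1 spanned only 1.2-fold, this likeness concerns the order of small differences.

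Plant defensins, another family of small cysteine-rich antimicrobial peptides, were described beside the thionins. Of 13 genes 10 were on a named probe set and 4 were tested. The other 6, among them the jasmonate- and ethylene-responsive PDF1.2, read between 1.4 and 105.4 on all arrays and did not pass the filter. PDF1.2 itself read 58.3, 19.6 and 16.7 on the untreated, mock and IAA arrays of wild type, 22.0 and 27.1 in the single-copy mutant, and 10.0 and 10.1 in the double mutant. It was below the floor on every array, so no genotype difference can be given. With IAA 0 of the 4 tested defensins passed the threshold, where 1.08% of all probe sets did. Their median log2 difference was -0.06 against -0.01 over all probe sets.

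Between the double mutant and wild type 1 defensin was higher and 1 lower, where 9.14% and 7.96% of all probe sets were. PDF2.6 fell in both mutants, with fitted log2 values of -2.02 in the double and -1.78 in the single-copy mutant (limma, adjusted p = 0.000915 and 0.0086). It read between 1836.1 and 2275.2 in wild type, 664.5 and 536.4 in the single-copy mutant, and 496.6 and 514.6 in the double mutant. PDF2.2 rose by 0.72 in the double mutant (limma, adjusted p = 0.018), with 7540.2 to 10338.9 in wild type against 11998.8 and 17514.8. The call for PDF2.2 was lost without wild-type untreated, wild-type IAA or double-mutant IAA (limma, adjusted p = 0.0676, 0.0626 and 0.0984). PDF2.3 and PDF2.4 had fitted values of -0.06 and 0.86 there (limma, adjusted p = 0.787 and 0.0766). PDF2.4 read 569.4, 729.0 and 865.0 on the untreated, mock and IAA arrays of wild type. It read 1686.3 untreated and 1214.5 with IAA in the single-copy mutant, and 1548.8 and 1049.7 in the double mutant.

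**Figure D5:**
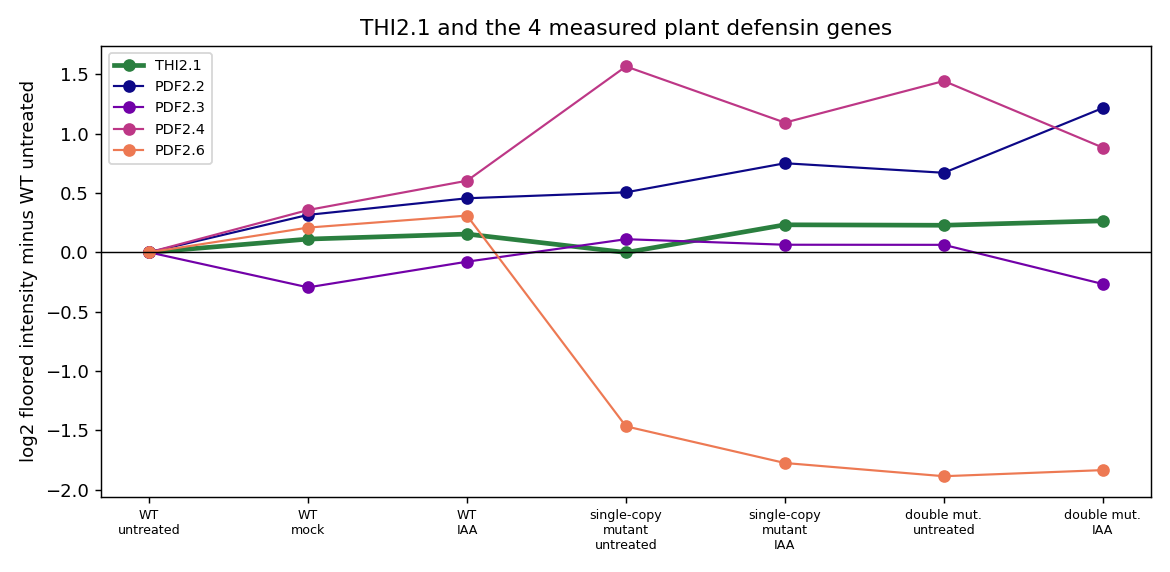
Log2 floored intensity minus that of untreated wild type (vertical axis) on the 7 arrays for THI2.1 (thick line) and the 4 tested plant defensin genes, with lines joining arrays only to guide the eye. PDF2.6 is lower on every mutant array and PDF2.2 higher, while THI2.1 stays within 0.27 of untreated wild type.

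Of the jasmonate lists few genes are named here. In jasmonate synthesis OPCL1 and AIM1, which encode enzymes of precursor activation and beta-oxidation, had fitted values of -0.61 and -0.42 in the double mutant against wild type (limma, adjusted p = 0.0531 and 0.0802), and 0 of 2 passed in any comparison, where the share of all probe sets that passed was 17.1% in this one and at most 2.76% in the others. Their median there was -0.51 against 0.02 over all probe sets. JMT, which encodes the enzyme that makes methyl jasmonate, read between 23.0 and 240.8 over the 7 arrays and did not pass the filter. In jasmonate response the transcription factor gene MYC4 fell by 0.99 in the double mutant (limma, adjusted p = 0.024), from 324.9 to 165.1 in untreated and from 221.6 to 110.4 in IAA-treated flowers. This call was lost without wild-type untreated, double-mutant untreated or double-mutant IAA (limma, adjusted p = 0.0767, 0.0611 and 0.17). Its paralog MYC3 had a value of -0.05 (limma, adjusted p = 0.822). With IAA against untreated 0 of these 4 genes passed, where 1.08% of all probe sets did.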

How the data were processed

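The authors deposited linear intensity values, 1 per probe set and array. They come from MAS5, per the submitters' processing notes. Its version, scaling factors and detection calls are not stated in any source used here. Each array had a 2% trimmed mean of 500, so the scaling was kept. Probe sets were named through the platform annotation of 2016, and symbols were updated by the RefSeq table (TAIR10.1), used only for names and neighbours. No sequence is shown.

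Intensities were floored at the 25th percentile (64.9) and taken to log2. Probe sets whose highest array exceeded the 50th percentile (248.1) were kept, which left 13021 without controls. Genotype and treatment were fitted as additive terms with limma 3.58.1 in R 4.3.3 (lmFit, eBayes; 2 residual degrees of freedom), with Benjamini-Hochberg adjustment and a threshold of 0.05. With 1 array a group, p-values measure how well the additive terms hold over arrays, and may miss the spread between plants. The mock array adds nothing to the residual. The fit was tested on simulated data. The members and the 13 gene lists were chosen with earlier results of these data known. The lists of pathogenesis-related genes, GASA peptides, green tissue and seed maturation had no gene on a named probe set and were not analysed here. Genes were named by rule: the thionins, list members past the threshold or with the largest differences, the 5 most correlated genes and the 3 nearest genes on each side. Other floors, filters, normalizations, an intensity trend and leaving out each array were tried. Genotype labels were not checked on ARF6 or ARF8, whose probe sets are not named here.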

Additional observations from a re-analysis of the deposited data

How the results depend on the processing

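No paired analysis was possible because each group has 1 array and the labels give no replicate numbers to use as a block; the additive fit already compares treatments within genotypes. The alternatives gave 189 values for the thionins, of which 170 kept their direction and side of the threshold or moved by less than their standard error. A value of 0 was counted as keeping its direction, and leaving out the mock array only repeats the main values. The count says little of size: the THI2.2 difference for IAA against untreated, always counted, ranged from -1.49 to -0.08. THI2.2 against wild type moved from 2.69 in the double mutant and 1.00 in the single-copy mutant to 4.24 and 1.49 with the lower floor (10th percentile), 1.41 and 0.36 with the higher (40th), and 4.18 and 1.47 with none, because the floor sets the wild-type level. With each array left out in turn these values ranged from 2.15 to 3.23 and from 0.04 to 1.96. THI2.2 in the double mutant against the single-copy mutant ranged from 0.73 to 2.65 with arrays left out (limma, adjusted p from 0.000193 to 0.562); it passed without the untreated array of the single-copy mutant (2.65), and without wild-type untreated or IAA (1.69). Direction changed for THI2.2 with mock (0.45 with the lower floor and 0.43 with none, from -0.36), for THI2.1 with IAA against mock after quantile normalization (-0.07), and for THI2.1 in the single-copy mutant against wild type, which ranged from -0.03 to 0.11 with arrays left out. With the filter at the 70th percentile THI2.2 was not tested. Of 191 values for the other genes called, 39 missed the threshold and none changed direction; with no filter all 13 calls were lost (limma, adjusted p from 0.0622 to 0.259). The counts over all probe sets moved more. IAA against untreated gave 141 in the main fit and 0 to 380 otherwise, mock 98 and 0 to 906, and IAA against mock 23 and 0 to 844. The double mutant gave 2227 and 2 to 2833 against wild type, and 163 and 0 to 388 against the single-copy mutant, which gave 360 and 1 to 822 against wild type. A low level limits THI2.2, which was above the floor on 3 arrays.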
